A study of Lates calcarifer with 24 samples.

Results

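Liver transcripts of juvenile Asian seabass (Lates calcarifer) fed a commercial pellet, Feed D, were compared with those of fish fed frozen baitfish, Feed A, the control diet. The comparison used the 4 liver arrays titled Group D and the 4 titled Group A, which make 8 of the 24 arrays of the series. The fish weighed 77.3 ± 22.4 g at the start and were fed from 107 to 168 days post-hatch (61 days). They were siblings of a single cross of brooders selected for growth, so both groups had the same parents. Feed A was frozen wild-caught fish given at a higher ration by body weight than the pellet. The study set this ration so that average energy intake stayed equal, since baitfish holds less dry matter. By the labels the livers of 4 fish per group were sampled, read here as 1 fish per array. The methods name more fish per feed for RNA extraction and do not say whether any were pooled. The sources used here do not give the rearing canvas of a fish. Fish of 1 group may thus have shared a canvas. The p-values of the main fit measure the spread between arrays within groups, in which differences between fish and between slides are mixed. That spread was estimated over 16 arrays, those titled B and C included, with 12 residual degrees of freedom. Results with the 8 arrays fitted alone are given below. The letters are those of the sample titles. Whether a letter names the same pellet in the titles and in the study's text was not settled, and results with the arrays titled Group F in place of Group D are therefore given where they bear on a result. The study fed its own Feed F at a lower ration by body weight than its other pellets. If the letters match, the Group F results belong to another feed and ration, not to another processing of Feed D.

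The liver of vertebrates can make long-chain unsaturated fatty acids from shorter dietary ones by turns of desaturation, which adds a double bond, and elongation, which adds carbons. The study describes Asian seabass as usually thought to have little or no capacity for this, as other marine fish. The liver also makes cholesterol through a chain of sterol enzymes, recycles one-carbon units on folate, and secretes most plasma proteins through the endoplasmic reticulum. Marine fish eat prey that is rich in long-chain polyunsaturated fatty acids and cholesterol, and the desaturases, elongases and sterol enzymes of vertebrates are known to be lowered when the diet supplies these products. Liver also produces acute-phase proteins, and houses resident immune cells that carry receptors for microbial products.

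Gene symbols were available for 15 probes, those which the study's tables pair with a symbol, and the study chose 13 of these 15 genes on these samples. Their counts are thus no independent evidence of a direction. The array probes themselves are not printed because no sequence of theirs was at hand. The primer pairs that the study designed for the same transcripts are the sequences that tie a named probe to its gene, and 4 pairs are shown, written 5′ to 3′, for the genes on which the lipid, sterol, folate and immune results below turn. Amplification values were not used here.
fads2 forward: atcgccatttccagcatcac
fads2 reverse: atcccgtactccactggttg
tm7sf2 forward: aagttcatttggagccgcag
tm7sf2 reverse: ggcgatggtttccagtcttg
aldh1l1 forward: catcatctaccacccctccc
aldh1l1 reverse: aggattggtccagtgtccag
lbp forward: ccagtgttttccttccagcc
lbp reverse: tggggtctgggtaccatttc

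The signal of a spot is the scanner's background-subtracted intensity, and a probe was counted as well above background on an array by the scanner's own flag. Between 21.6% and 29.8% of spots were well above background on the Group A arrays and between 27.0% and 29.3% on the Group D arrays. The 8 arrays lay on 3 slides. All 4 Group A arrays lay in slide columns 1 or 3 and all 4 Group D arrays in columns 2 or 4, so column and feed cannot be told apart. All levels below are log2 of the quantile-normalized signal, and all changes are Group D minus Group A on that scale. The tissue label could be checked with 1 hepatocyte marker only, serpina1, a gene of a plasma protease inhibitor made by hepatocytes, which was well above background on all 8 arrays.

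A small share of the probes on the array was called different between the feeds, and most of those called were higher on Feed D. Of all probes, 56.9% were well above background on none of the 8 arrays. A transcript was called differentially expressed (DET) when it changed 2-fold or more and its adjusted p lay below 0.05. Of 60080 probes, 1154 were DETs (1.92% of all probes), 862 of them higher in Group D (1.43%) and 292 lower (0.486%), from limma with Benjamini-Hochberg adjustment over all probes. A further count without the fold limit reached 1289 probes (2.15%). An unadjusted limma p below 0.05 was reached by 6158 probes (10.2%), 3510 higher and 2648 lower, called significantly expressed transcripts (SETs) here. The study took its SETs from an unpaired t-test, which gave 4479 on these arrays. The 4 arrays of Group D all lay above the 4 of Group A for 2048 probes (3.41%) and all below for 1241 (2.07%). This lean turned with the scaling, to 2184 above and 4589 below when arrays were scaled to the 75th percentile of bright probes and to 1621 and 5997 with that of all probes. Of the DETs, 1132 (98.1%) showed such a separation, which the call itself favours. Without Group D replicate 2 the DETs numbered 705 (150 of them lower), and without Group D replicate 4 they numbered 708 (554 higher, 154 lower). Without Group D replicate 3 the lower DETs numbered 179. With the 8 arrays of Groups A and D fitted alone, 592 DETs were called (471 higher, 121 lower). The deposited values gave 712 DETs and normexp 652. The t-test that the methods use for SETs gave 270 after adjustment with the 2-fold limit, and a test with unequal variances gave 44. The study itself called DETs by an analysis of variance.

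**Figure D1:**
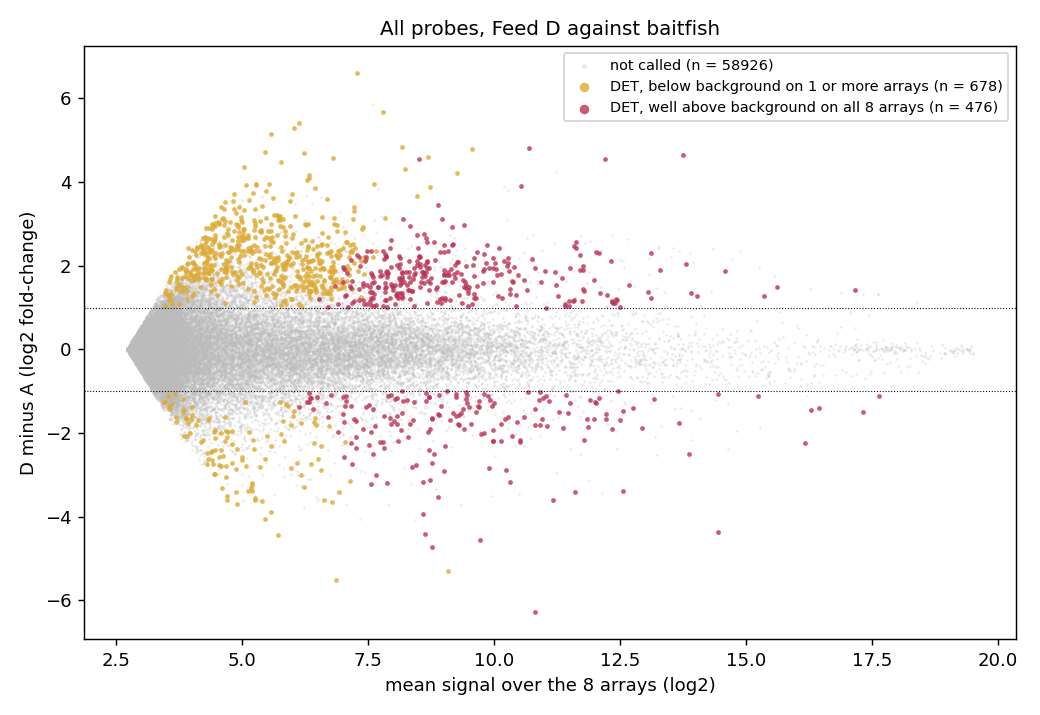
Each point is 1 probe, with its mean signal over the 8 arrays (log2) on the x axis and its change, Group D minus Group A (log2), on the y axis. Red points are the 476 DETs well above background on all 8 arrays, yellow points the other 678 DETs, and grey points the 58926 probes not called, with dotted lines at a 2-fold change.

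The size of a change was measured on both sides for 476 DETs, those well above background on all 8 arrays, out of 8759 such probes (5.43% called). Of these, 299 were higher and 177 lower in Group D, with a median change of 3.15-fold. Most changes were under 4-fold. Between 2- and 4-fold lay 222 higher and 129 lower DETs, between 4- and 8-fold 69 and 33, between 8- and 16-fold 4 and 10, and beyond 16-fold 4 and 5. The lower DETs of this class numbered 88 without Group D replicate 4, 92 without Group D replicate 2, 114 without Group D replicate 3, 103 without Group A replicate 3 and 107 without Group A replicate 4.

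Some of the higher DETs came from probes that were not well above background in any fish on baitfish. Among 5168 probes well above background on no Group A array but on some Group D array, 295 were DETs (5.71%). All 295 were higher in Group D, a direction that this choice of probes favours. A lower limit of the fold could be given for 228 of them, with a median of at least 1.86-fold and a maximum of at least 11.3-fold. The other 67 had no limit above 1-fold and are left out of that median, which is thus not that of all 295. Such a limit sets the mean of the bright group against, on each dim array, the higher of the probe's own signal and the lowest signal well above background. For 99 of these probes the limit reached 2-fold. Among 3865 probes well above background on no Group D array but on some Group A array, 74 were DETs (1.91%). All 74 were lower, which this choice favours too. Of 68 with a limit, 40 reached 2-fold, to at least 8.19-fold, and the other 6 had no limit above 1-fold. With normexp, 69 DETs in place of 369 were above background on no array of 1 group. A further 271 DETs were above background on some arrays of both groups (244 higher, 27 lower), and 38 were above background on none of the 8 arrays (24 higher, 14 lower), so no size is given for them.

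**Figure D2:**
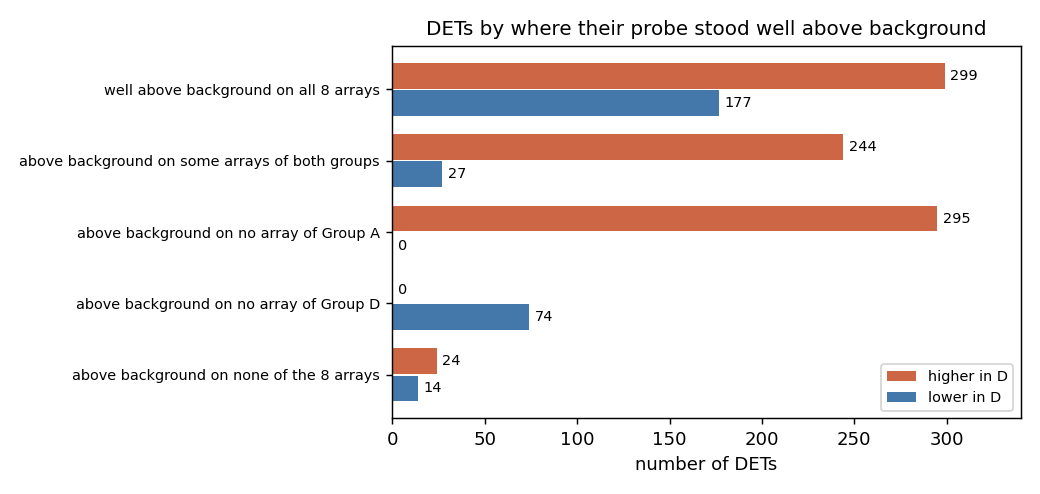
Bars give the number of DETs (x axis, from 0) by where their probe was well above background (y axis), with those higher in Group D in orange and lower in blue. The 5 classes hold 476, 271, 295, 74 and 38 DETs. The higher ones outnumber the lower ones in each class except the probes seen on some Group A array and no Group D array.

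A total of 325 probes (0.541%) were well above background on 4 of 4 Group D arrays and 0 of 4 Group A arrays, against 21 (0.035%) the other way round. Of the 325, 184 were DETs, and of the 21, 18 were, against 1.92% of all probes. The choice of these probes by detection favours such calls, so nothing is read from them. Without Group A replicate 4, the array of that group with the most spots above background, the first number was 752 with 3 Group A arrays left to be dark. Without Group A replicate 1 or 2 the second was 35 or 89. The 75th percentile of the unscaled signal was 22.2 to 46.7 on the Group A arrays and 32.9 to 80.2 on the Group D arrays, and the part of this difference in the detection counts was not tested. In bulk liver RNA, more cells of a type and more RNA per cell cannot be told apart in any of these counts.

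Of 14 listed genes of unsaturated fatty acid synthesis 3 had a named probe, fads2, elovl5 and elovl1b, and these 3 were higher DETs, against 1.43% of all probes. The study chose elovl1b because it differed on these samples, and fads2 and elovl5 as genes that typically respond to dietary fatty acids. Nothing is read from that count. fads2 encodes the fatty acid desaturase that acts on polyunsaturated fatty acids. Its level was 7.82, 3.31, 5.47 and 7.69 in Group A and 11.42, 11.05, 9.02 and 10.09 in Group D. Every Group D fish lay above every Group A one, but Group A was spread widely and only 2 of its arrays were well above background. The fitted change was 4.32 ± 0.86 (SE; limma, adjusted p = 0.0175), and because the dim arrays enter at their own signal it is not a measured fold. Leaving out 1 array at a time gave changes of 3.39 to 4.91 with adjusted p from 0.0111 to 0.0635, below 0.05 in 5 of 8 cases.

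The elongases followed with smaller changes. elovl5, an elongase of polyunsaturated fatty acids, stood at 6.54, 5.22, 3.68 and 5.60 in Group A, with 2 arrays well above background, and at 7.70, 6.61, 7.79 and 7.32 in Group D. The lowest Group D fish was only just above the highest Group A one. The change was 2.10 ± 0.49 (limma, adjusted p = 0.0457), and it passed the threshold in 1 of 8 fits with an array left out (adjusted p 0.0127 to 0.135). elovl1b, an elongase of saturated and monounsaturated very long chains in mammals, was measured on all 8 arrays, at 8.58, 8.16, 8.54 and 8.34 in Group A and 9.62, 9.75, 9.60 and 9.60 in Group D. The groups lay far apart for their spread, with an SD of 0.19 in Group A and 0.072 in Group D. Its change was 1.24 ± 0.16, or 2.36-fold (limma, adjusted p = 0.00120), and 8 of 8 fits with an array left out called it.

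Of 25 sterol synthesis genes listed, tm7sf2 alone had a named probe. It encodes a sterol C14-reductase, an enzyme of the later steps of cholesterol synthesis. It was well above background on 0 of 4 Group A arrays, where the signals were between 3.16 and 5.08, and on 4 of 4 Group D arrays, at 8.66, 8.29, 7.60 and 6.87. The transcript was thus seen in every Group D liver and in no Group A one. The fitted change was 3.73 ± 0.61 (limma, adjusted p = 0.00556), with the dim Group A arrays at their own signal, so it is not a measured fold. As a lower limit, which carries no test, tm7sf2 was at least 5.40-fold higher in Group D (2.43 on the log2 scale). That limit holds on the quantile-normalized scale only. The fitted change was smaller than it with normexp background correction (1.56 on the log2 scale) and with the deposited values (1.71). Its call held in 8 of 8 fits with an array left out. Within the slides its difference was 4.48, 4.78 and 1.88.

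Of 11 listed genes of folate metabolism 2 had a named probe, aldh1l1 and shmt2, and 1 of these was a lower DET, against 0.486% of all probes. The study chose both because they differed on these samples, so nothing is read from that count. aldh1l1 encodes the cytosolic enzyme that oxidises formyl-tetrahydrofolate and so takes one-carbon units out of the folate pool. Its level was 12.91, 13.34, 13.54 and 13.60 in Group A and 11.41, 10.99, 12.02 and 12.17 in Group D. All Group D fish lay below all Group A ones. The level fell by 1.70 on the log2 scale (SE 0.30, 3.25-fold, limma, adjusted p = 0.00848), a call kept in 8 of 8 fits with an array left out. shmt2, the mitochondrial serine hydroxymethyltransferase that loads one-carbon units onto folate, stood at 8.06, 7.66, 8.88 and 9.53 in Group A and 8.61, 8.74, 9.45 and 9.41 in Group D. The groups overlapped, and the difference of 0.52 ± 0.42 did not pass the test (limma, adjusted p = 0.764).

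Of 15 listed genes of secretion 3 had a named probe, serpina1, p4hb and ssr1. Their means were lower in Group D, with 1 lower DET, against 0.486% of all probes. The study chose these 3 because they differed on these samples, so nothing is read from that count. serpina1 stood at 17.71, 18.15, 18.41 and 18.52 in Group A against 16.92, 16.90, 17.35 and 17.13 in Group D. The groups did not overlap, and the level fell by 1.12 on the log2 scale (SE 0.25, 2.18-fold; limma, adjusted p = 0.0318), but only 2 of 8 fits with an array left out called it (adjusted p 0.0196 to 0.103). p4hb, a protein disulphide isomerase that folds proteins in the endoplasmic reticulum, was at 10.92, 10.62, 10.93 and 10.32 in Group A and 9.59, 9.64, 9.90 and 9.88 in Group D. Its difference of -0.94 ± 0.21 passed the adjusted p (limma, 0.0347) but not the 2-fold limit, and passed the adjusted p in 1 of 8 fits with an array left out. ssr1, a subunit of the complex that sits at the translocation channel for secreted proteins, ranged from 11.87 to 12.29 in Group A and from 11.26 to 11.97 in Group D. The groups overlapped through 1 Group D fish, and the difference of -0.59 ± 0.21 did not pass (limma, adjusted p = 0.252).

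Of 15 listed genes of innate immunity 3 had a named probe, lbp, tlr8a and tnfsf14, and these 3 were higher DETs, against 1.43% of all probes. The study chose these 3 because they differed on these samples, so nothing is read from that count. lbp encodes lipopolysaccharide-binding protein, an acute-phase protein that carries bacterial lipopolysaccharide to its receptor. It stood at 8.04, 7.74, 7.68 and 7.60 in Group A and at 9.75, 9.90, 10.54 and 10.13 in Group D. The highest Group A fish was well below the lowest Group D one, and the rise was 2.32 ± 0.20, or 4.98-fold (limma, adjusted p = 9.68e-05). tlr8a, an endosomal receptor for single-stranded RNA, was well above background on 0 of 4 Group A arrays, where its signals were between 3.40 and 4.51, and on 4 of 4 Group D arrays, at 6.02, 6.53, 6.43 and 6.30. Its fitted change was 2.42 ± 0.24 (limma, adjusted p = 0.000285), with the dim arrays at their own signal. As a lower limit, which carries no test, it was at least 1.98-fold higher (0.98 on the log2 scale). That limit holds on the quantile-normalized scale. The fitted change was smaller than it with normexp (0.78 on the log2 scale) and with the deposited values (0.84). tnfsf14, a cytokine of the tumour necrosis factor family, stood at 5.72, 5.21, 4.66 and 5.79 in Group A, above background on 1 array, and at 7.30, 7.61, 7.20 and 7.85 in Group D. Its fitted change was 2.15 ± 0.29 (limma, adjusted p = 0.00173). The calls of all 3 held in 8 of 8 fits with an array left out. None held under a t-test with unequal variances (adjusted p = 0.0784 for lbp, 0.119 for tlr8a and 0.173 for tnfsf14). That of tnfsf14 was also lost under the methods' t-test (adjusted p = 0.0642). Defining markers of immune cell types had no named probe. acp5a, known from macrophages in mammals, was also higher in Group D, by 2.70 (limma, adjusted p = 0.000237), and the part of immune cell numbers in these results was not tested.

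The last 3 named genes act elsewhere in the cell and were all higher. acp5a, a tartrate-resistant acid phosphatase found in osteoclasts as well as macrophages in mammals, stood at 5.33, 5.31, 5.45 and 5.32 in Group A, at the edge of background with 1 array above it, and at 7.88, 8.34, 7.97 and 8.00 in Group D. All 4 Group D fish were high and close together, and the fitted change had an SE of 0.26. gnpda1, which converts glucosamine phosphate into fructose phosphate, ranged from 6.89 to 7.63 in Group A and from 8.16 to 8.78 in Group D, a rise of 1.17 ± 0.20 (limma, adjusted p = 0.00730). pip4k2aa, a phosphoinositide kinase, ranged from 6.20 to 6.57 and from 7.35 to 7.69, a 2.14-fold rise (limma, adjusted p = 0.00238). In all, 12 of the 15 named genes were DETs (1.92% of all probes), 10 of them higher and 2 lower, and 13 of 15 did not overlap between the groups (3.41% of all probes above and 2.07% below). Nothing is read from these counts, since most of these genes were picked from these very arrays. Some calls were lost under other settings. With the 8 arrays fitted alone, fads2 (adjusted p = 0.19), elovl5 (0.27), tm7sf2 (0.0503), aldh1l1 (0.0588), p4hb (0.0534), serpina1 (0.0654) and gnpda1 (0.0635) no longer passed under limma. With the arrays of slide 1 left out, fads2 (0.114), elovl5 (0.0989), aldh1l1 (0.0633), p4hb (0.294), tnfsf14 (0.0577) and gnpda1 (0.0623) did not pass. The scaling over all probes ended the call of gnpda1 (0.0538), the scaling over bright probes that of p4hb (0.13) and normexp that of elovl5 (0.0612). The 2-fold limit was missed by tlr8a, gnpda1 and pip4k2aa with normexp (0.78, 0.89 and 0.58 on the log2 scale) and with the deposited values (0.84, 0.93 and 0.68), so that they were no longer DETs there although their adjusted p still passed. Under the same settings the fitted changes of fads2 (2.99 and 3.15), tnfsf14 (1.12 and 1.14) and acp5a (1.44 and 1.54) were smaller too. Over the alternatives that kept the Group D arrays (limma or t-tests), the adjusted p ran from 0.00294 to 0.536 for fads2 and 0.0127 to 0.663 for elovl5. It ran from 0.00155 to 0.206 for tm7sf2, 0.000867 to 0.261 for aldh1l1 and 0.0114 to 0.294 for p4hb. For serpina1 it was 0.00666 to 0.259, for tnfsf14 0.00041 to 0.173 and for gnpda1 0.00137 to 0.238. Under the t-test with unequal variances elovl1b (adjusted p = 0.109), lbp (0.0784), tlr8a (0.119) and pip4k2aa (0.0765) did not pass either. With the arrays titled Group F in place of D none of these genes passed.

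**Figure D3:**
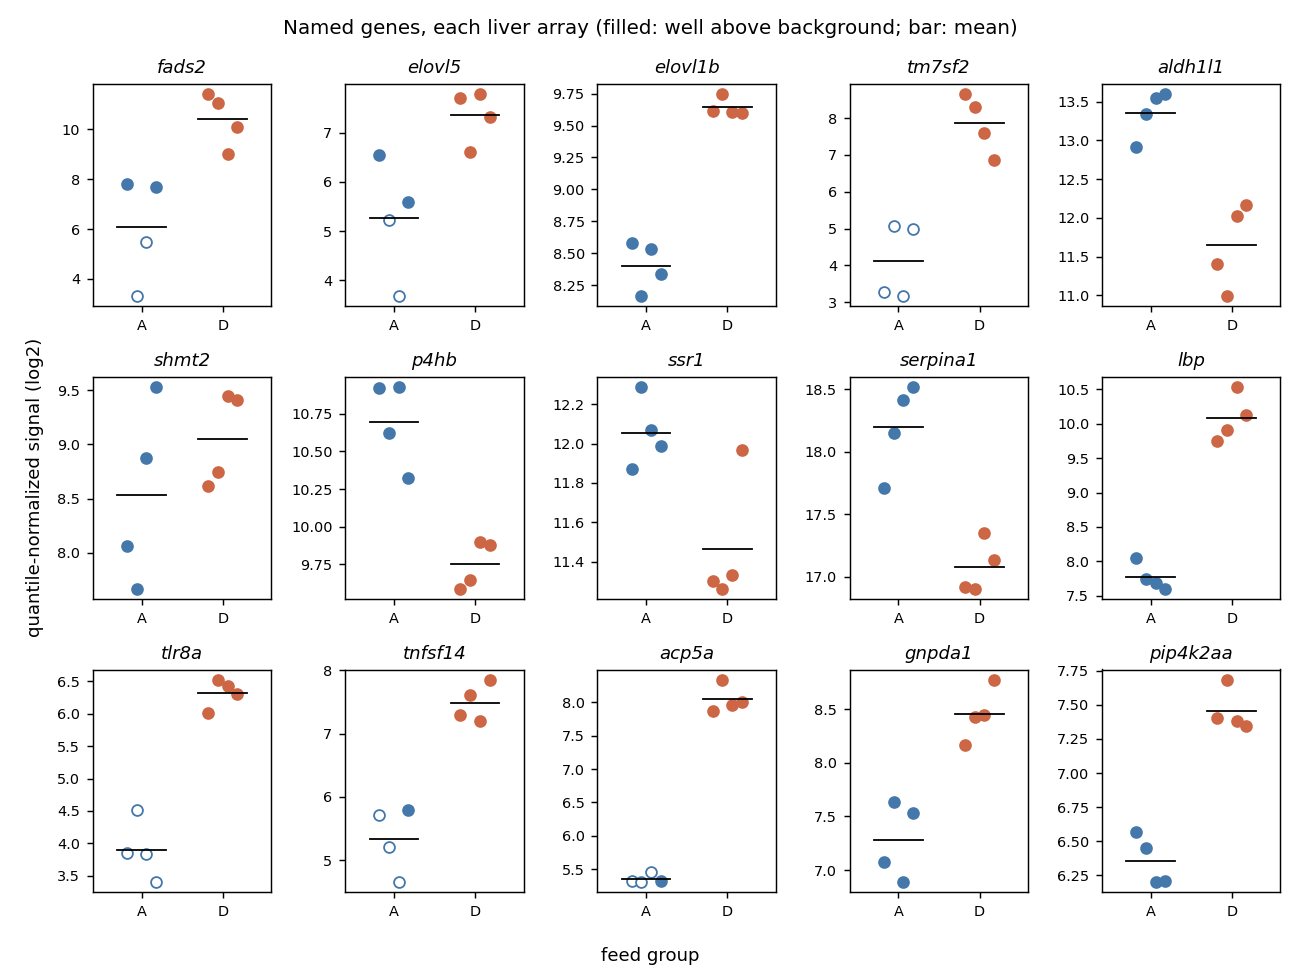
Each panel plots 1 named gene, with the log2 quantile-normalized signal of each array on the y axis and the feed group on the x axis; filled points were well above background, open points were not, and bars are means of 4 arrays. In 13 of 15 panels the groups do not overlap, the exceptions being shmt2 and ssr1, and the open points lie in Group A.

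Among DETs measured on all 8 arrays, the strongest fall belonged to a transcript known here only by its probe, CUST_13087_PI428621111. It stood at 13.64, 14.16, 13.91 and 14.13 in Group A and at 7.52, 7.88, 7.38 and 7.94 in Group D. Every Group D fish lay far below every Group A one, though still well above background. The level fell by 6.28 on the log2 scale (SE 0.38, 77.8-fold, limma, adjusted p = 7.36e-06). The next, CUST_39480_PI428621111, stood at 11.38, 9.74, 12.06 and 11.35 against 6.66, 5.73, 6.94 and 6.30, and fell by 4.73 on the log2 scale (SE 1.01; limma, adjusted p = 0.0265). It passed the threshold in 1 of 8 fits with an array left out and had an adjusted p of 0.135 without slide 1 (limma). Over the alternatives that kept the Group D arrays (limma or t-tests) it ran from 0.0086 to 0.135, and with Group F in place of D it reached 0.581. CUST_12880_PI428621111 rose most, from 8.02, 8.06, 8.36 and 8.67 to 13.78, 12.57, 13.31 and 12.73. Its rise was 4.82 ± 0.31, or 28.3-fold (limma, adjusted p = 1.26e-05). CUST_41879_PI428621111 stood at 11.68, 11.64, 9.66 and 12.80 in Group A and at 15.68, 17.04, 15.10 and 16.52 in Group D, a rise of 4.64 ± 0.64 (limma, adjusted p = 0.00179). It did not pass under the methods' t-test (adjusted p = 0.103). With unequal variances neither it (t-test, adjusted p = 0.208) nor CUST_12880_PI428621111 (0.052) passed. The groups did not overlap for any of these 4 probes, which their choice by size of change favours. Of all DETs 98.1% did not overlap, and of all probes 3.41% lay above and 2.07% below.

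The Group D arrays had smaller SDs than the Group A arrays. Over all probes the median SD between the 4 arrays was 0.312 in Group D and 0.425 in Group A, and over the 8759 probes measured on all 8 arrays it was 0.362 and 0.497, with the larger SD in Group A for 66.8% of these probes. With any 1 array left out the median SD was 0.325 to 0.350 in Group D and 0.458 to 0.484 in Group A. No test was run on this, since probes are not replicates. Repeat spots show the noise between spots of 1 array, not that of labelling, hybridisation or slide. For 231 probes spotted 6 times and measured on all 8 arrays, the median SD between spots of 1 array was 0.0606, against 0.293 between arrays of Group A and 0.189 between arrays of Group D.

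Each of the 3 slides held arrays of both groups, 2 of A and 1 of D on slide 1, 1 and 2 on slide 2, and 1 of each on slide 3. All 1154 DETs had the same direction on all 3 slides, a count that the call itself favours. The median difference of the higher DETs was 1.64, 2.01 and 1.98 and that of the lower ones -1.51, -2.03 and -2.03. fads2 differed most between slides, at 5.85, 4.56 and 2.41, while acp5a gave 2.56, 2.70 and 2.68 and CUST_13087_PI428621111 gave -6.39, -6.28 and -6.19. With slide as a block, 1314 DETs were called.

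**Figure D4:**
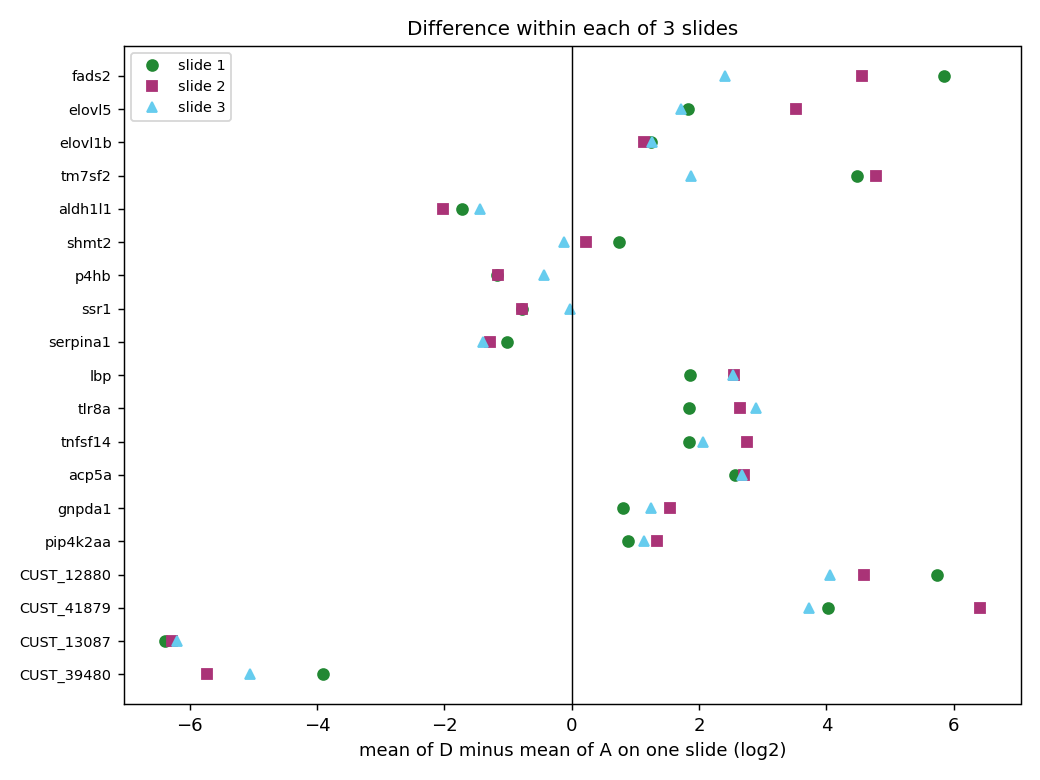
Each row is 1 named gene or probe, and each symbol is the mean of the Group D arrays minus that of the Group A arrays on 1 slide (x axis, log2). The symbols of all rows except shmt2 lie on 1 side of the line at 0, while those of p4hb and ssr1 come nearest to it on slide 3.

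The other pellet-fed groups were set against the same 4 baitfish arrays, so their values share those controls and are given side by side only. DETs against Group A made up 1.92% of probes in Group D, 0.423% in B, 0.115% in C, 0.0266% in E and 0.0316% in F. The Group B and F arrays lay in even slide columns, as did those of Group D, and the Group C and E arrays in odd ones, as did those of Group A. The 299 higher DETs measured on all 8 arrays, chosen for their rise in D (median 1.67), had median changes of 1.14 in B, 0.91 in C, 0.98 in E and 0.83 in F. The 177 lower ones (median -1.62) had -1.02, -0.93, -0.73 and -0.82. The medians of the other pellet groups lay on the same side of baitfish as those of Feed D, nearer to 0. The shared baitfish arrays favour the common side and the choice of probes in D favours the smaller size, so nothing is read from this.

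Single genes are given likewise. aldh1l1 changed by -1.70 in D and by -0.49 in B, 0.23 in C, -0.50 in E and -0.15 in F. CUST_13087_PI428621111 changed by -6.28 in D, -0.82 in B, -3.06 in C, -0.50 in E and -1.06 in F, so the fall was deepest in D and next in C. The means of the desaturase and elongase genes lay on the same side of baitfish in every pellet group. Outside D none of them had an adjusted p below 0.05 (limma, 0.0723 to 0.817). fads2 changed by 4.32 in D and by 2.68, 3.24, 3.59 and 3.38 in B, C, E and F, elovl5 by 2.10 in D and by 2.26, 2.40, 1.77 and 1.13, and elovl1b by 1.24 in D and by 0.64, 0.61, 0.25 and 0.31. tm7sf2, dim on all Group A arrays, was well above background on 4 arrays of D, 2 of B, 3 of C, 3 of E and 3 of F. lbp changed by 2.32 in D and by 1.67, 1.26, 1.499 and 1.068 in B, C, E and F. tlr8a changed by 2.42 in D and by 2.30, 1.85, 1.67 and 1.09 in the same order. For tnfsf14 the changes were 2.15 in D and 1.04, 0.86, 1.12 and 0.801. Those of acp5a were 2.70 in D and 1.74, 1.49, 1.18 and 1.21. The means of lbp, tlr8a, tnfsf14 and acp5a lay above baitfish in every pellet group, furthest in D. The study chose these genes for differing on these samples, and the shared Group A arrays favour a common side. In B and C the adjusted p lay below 0.05 for lbp, tlr8a and acp5a but not for tnfsf14 (limma, 0.203 and 0.469). In E and F it did so for none of them (limma, 0.124 to 0.519). Dim Group A arrays enter tlr8a, tnfsf14 and acp5a at their own signal, so those changes are not measured folds. CUST_12880_PI428621111 changed by 4.82 in D, 2.98 in B, 5.01 in C, 3.19 in E and 4.86 in F. These differences between pellets were not tested here. With the arrays titled Group F in place of D, 19 DETs were called (12 higher, 7 lower), and of the 17 named genes and probes with an adjusted p below 0.05 in Group D, CUST_12880_PI428621111 alone had one.

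**Figure D5:**
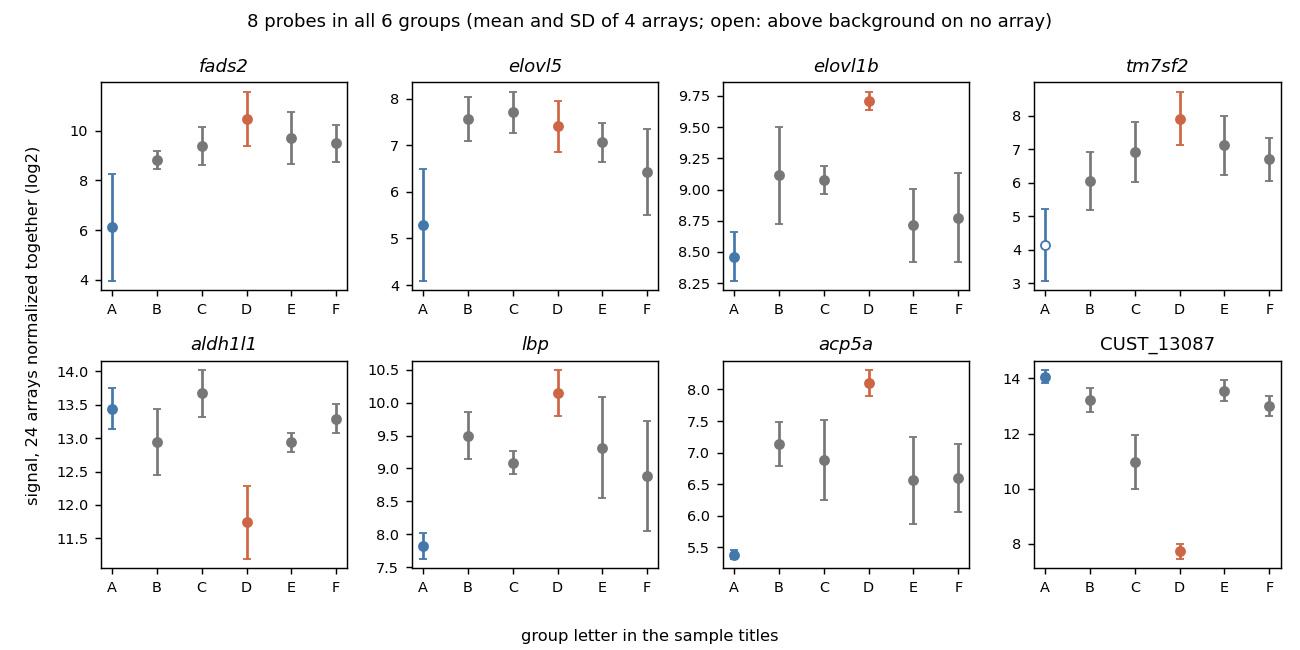
Points are means and bars SDs of 4 arrays (y axis, log2 signal with 24 arrays normalized together) for 8 genes or probes in the 6 groups (x axis), with Group A in blue and Group D in orange. The bar of Group D meets no other for elovl1b, aldh1l1, acp5a and CUST_13087, and meets those of other pellet-fed groups for fads2, elovl5, tm7sf2 and lbp.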

How the data were processed

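Liver RNA of Asian seabass was labelled with Cy3 and hybridised to one-colour Agilent arrays, and the authors extracted each scan with Feature Extraction 10.7.1.1. The deposited scanner intensities are background-subtracted, with flags for signal well above background, saturation and outliers. The deposited processed values are log2 values normalized by the authors in Partek, used as an alternative, with 0 columns unmatched.

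Quantile normalization ran over 61580 spots besides controls on 16 arrays, those titled A to D. Afterwards outlier spots were left out, values were log2-transformed and repeat spots averaged, giving 60080 probes, 21 of them with a missing value. limma 3.58.1 (R 4.3.3, statmod 1.5.0) was fitted by feed group alone, with 12 residual and 1.14 prior degrees of freedom and Benjamini-Hochberg adjustment over all probes. Groups E and F were fitted with all 24 arrays. A probe was well above background on an array when over 50% of its spots were. With 4 arrays against 4, an exact two-sided permutation test cannot go below 0.0286, so p-values come from limma. The number of arrays limits the precision. The fit was tested on simulated data. No saturated probe is named. Figures were drawn with matplotlib 3.10.9.

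Named are the 15 probes paired with a symbol in the study's tables and, among DETs well above background on all 8 arrays, the 2 that rose and the 2 that fell most. The members and gene lists were chosen with earlier results of these data known. Of 124 listed genes 12 had a named probe. The other 5 of the 10 lists (fatty acid synthesis, fatty acid oxidation, glycolysis and gluconeogenesis, amino acid breakdown, xenobiotic and retinol metabolism) had none. Of 60080 transcript names, 0 matched the reference gene list. Alternatives were other scalings, normexp with an offset of 50, the deposited values, outliers kept, 8 or 24 arrays, blocks for slide or for replicate number, dim probes left out, t-tests, no fold limit, Group F in place of D and leaving out arrays. Leaving out slide 1 was added after seeing the data.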

Additional observations from a re-analysis of the deposited data

Results flagged for a closer look

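In 4 of the 42 sets of 4 arrays examined, the gap between 1 array and its nearest neighbour exceeded Dixon's 95% limit. About 1 set in 20, or 2.1 sets here, would do so by chance. elovl1b was at 9.75 (log2) in Group D replicate 2, above the other 3 Group D fish. pip4k2aa was at 7.69 in the same fish, above the others of its group. ssr1 was at 11.97 in Group D replicate 4, the fish through which its groups overlap. acp5a was at 5.45 in Group A replicate 3, in a group whose SD was 0.0673 and which lies at the edge of background.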

How the results depend on the processing

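The methods' t-test on the 8 arrays, which does not share variances between probes, gave 4479 SETs and, after Benjamini-Hochberg adjustment with the 2-fold limit, 270 DETs (222 higher, 48 lower), and a test with unequal variances gave 3695 SETs and 44 DETs (37 higher, 7 lower). Of the 17 named genes and probes with an adjusted p below 0.05, 8 and 2 passed under these tests, 10 with the 8 arrays fitted alone, 10 without slide 1 and 12 to 15 without 1 array. With the 8 arrays fitted alone there were 592 DETs (471 higher, 121 lower), of which 157 higher and 56 lower were well above background on all arrays and 236 on no array of 1 group. Normexp background correction gave 652 DETs (438 higher), 69 of them above background on no array of 1 group. The deposited values gave 712 (495 higher). The filter of dim probes, which kept 17873 probes, gave 449 lower DETs of 1593, and without slide 1 there were 441 lower DETs of 1200.

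Scaling to the 75th percentile moved the median change of all probes to -0.31 over bright probes and -0.465 over all probes, from -0.00915, and the probes with all Group D arrays below Group A became 4589 and 5997. No named gene or probe changed direction under another scaling. Relaxing detection to at least 3 of 4 arrays against at most 1 of 4 gave 1657 probes seen on the Group D side and 245 on the Group A side.

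With the arrays titled Group F in place of D there were 19 DETs (12 higher, 7 lower), 4041 SETs, 4 higher and 2 lower DETs above background on all arrays, 9 DETs above background on no array of 1 group, 1053 probes with all arrays above and 655 with all below, and 28 against 4 probes by detection. With slide as a block as well there were 24 DETs (16 higher, 8 lower), of which 9 higher and 2 lower were above background on all arrays and 8 on no array of 1 group. ssr1 then changed direction without slide in the fit (0.10), and shmt2 did so without slide 1 (-0.0064). Neither was called in any fit. The cause was not tested.

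Leaving out 1 array gave 705 to 1144 DETs, 554 to 829 higher, 150 to 385 lower and 5400 to 6814 SETs. DETs above background on all arrays numbered 217 to 306 higher and 88 to 210 lower, with a median of 3.19- to 3.4-fold, and those above background on no array of 1 group 223 to 401. Detection gave 352 to 752 probes seen only on the Group D side and 22 to 89 on the other. The replicate number as a block gave 1450 DETs and kept the call of the 17 named genes and probes that had one. Arrays sharing a number correlated at 0.508, 0.0723, 0.183 and 0.388 in their deviations. Those at 0.508, 0.183 and 0.388 also shared a slide, and the pair at 0.0723 did not. Group A replicate 3 and Group D replicate 2, which shared a slide only, stood at 0.186. Group A replicate 2 and Group D replicate 1, likewise, stood at -9.95e-05. Number and slide were thus largely mixed, and the numbers were not taken to pair the fish. The main fit held no term for slide. Dim signals limit what can be sized, since 56.9% of probes were well above background on none of the 8 arrays.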

Other observations

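Of the probes measured on all 8 arrays, split into 4 equal parts by mean signal, 2.15% were DETs in the dimmest part, 5.43% in the next, 7.40% in the third and 6.76% in the brightest. In the dimmest part 21 DETs were higher and 26 lower in Group D, and in the others 88 and 31, 108 and 54, and 82 and 66.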
